A study of Mus musculus with 2 samples.

Results

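The Slc25 genes encode the mitochondrial carriers, and DNase-seq read the open DNA around them in gastrocnemius, a calf muscle of mixed and mostly fast fibres, taken from young mice. Members were the protein-coding genes of the mm10 GENCODE annotation whose symbol is Slc25a and a number, which gave 47 of 21938 protein-coding genes on nuclear chromosomes. The choice used symbols alone and no measured value. The data were 2 biological replicates of 1 group, B6CASTF1/J females, the F1 hybrids of C57BL/6J with CAST, aged 14 days. Each sample's label mentions 3 females without saying whether their muscles were pooled, and both samples carry the same donor record. The samples analysed here hold no treated, mutant or control group, so the Slc25 genes were set against all protein-coding genes of the same libraries.

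The enzyme DNase I cleaves DNA that nucleosomes and other proteins leave bare, so a cluster of cuts marks an open site, and a short protected stretch inside it, a footprint, marks bases that a bound protein may cover. Carriers of the Slc25 family span the inner mitochondrial membrane and exchange ADP for ATP or pass phosphate, keto acids, amino acids, acylcarnitines, iron, nucleotides and cofactors between the cytosol and the matrix. Muscle fibres depend on them because ATP made in the matrix must reach the contractile filaments. Open DNA at a promoter is not a measure of transcript or protein level.

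Each gene was described by its promoter signal, the signal of the strongest peak of the stricter of 2 deposited lists with a midpoint within 1000 bp of any transcription start site (TSS) of the gene. The authors set this signal for each peak, on a scale that is not stated, and a gene with no such peak was given 0. A promoter is called open here where both libraries had such a peak. Replicate 1 had 87558 strict peaks and replicate 2 had 79562, the median signal was 1.53 in both, and read totals were not used here. All 8 skeletal muscle markers had open promoters (Acta1 had 9.23 in replicate 1 and 6.68 in replicate 2, and Ckm had 13.1 and 8.99), while the pairs of markers for heart, liver, keratinocytes, macrophages and pluripotent cells had none. Of the brown fat pair, Cidea (3.04 and 2.68) was open. A sequencing batch cannot be told apart from the replicate, since 2 instruments are named for replicate 2 and none for replicate 1. With 1 group there was no contrast between conditions to test, so counts and medians of the members are given beside those of all genes.

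The 120 bases before the start of the ADP/ATP carrier genes and of their relatives are shown first, because motifs in them are described below. Bases in capitals lay inside a footprint of both libraries, and all sequences are the mm10 reference, 5′ to 3′ in the direction of the gene. Only 30 bases are shown for Slc25a4, around a stretch that both Slc25a4 and Slc25a5 carry in capitals, ATATAAG. For Slc25a31 the same window holds no base in capitals.
Slc25a4, chr8:46211045-46211074, minus strand: agacGCCGAGCCGGGGATATAAGGAgggct
Slc25a5, chrX:36795531-36795650, plus strand: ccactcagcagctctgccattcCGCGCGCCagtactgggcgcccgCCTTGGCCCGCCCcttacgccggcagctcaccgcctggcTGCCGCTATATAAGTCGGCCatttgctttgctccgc
Slc25a31, chr3:40708735-40708854, plus strand: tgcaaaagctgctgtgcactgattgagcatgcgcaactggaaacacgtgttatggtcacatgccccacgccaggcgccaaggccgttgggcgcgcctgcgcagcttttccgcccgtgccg
Slc25a3, chr10:91124060-91124179, minus strand: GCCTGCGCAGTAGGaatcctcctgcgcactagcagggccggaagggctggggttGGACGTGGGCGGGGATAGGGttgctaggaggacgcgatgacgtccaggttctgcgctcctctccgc

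Most carrier genes had open promoters. A strict promoter peak was present in both libraries at 40 of 47 members (85.1%, Wilson 95% interval 72.3 to 92.6%, counting error over genes only), against 63.7% of all protein-coding genes. In the permissive peak lists the count was 42 of 47, against 68.3% of all genes. The median over the members of the mean promoter signal of both libraries was 7.26, against 2.94 over all genes. Among open promoters alone the medians lay closer, 9.08 for the 40 members and 7.60 for all 13985 open genes. By mean promoter signal 36 of 47 members stood at or above the 50th percentile of all genes, 18 at or above the 75th and 9 at or above the 90th.

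**Figure D1:**
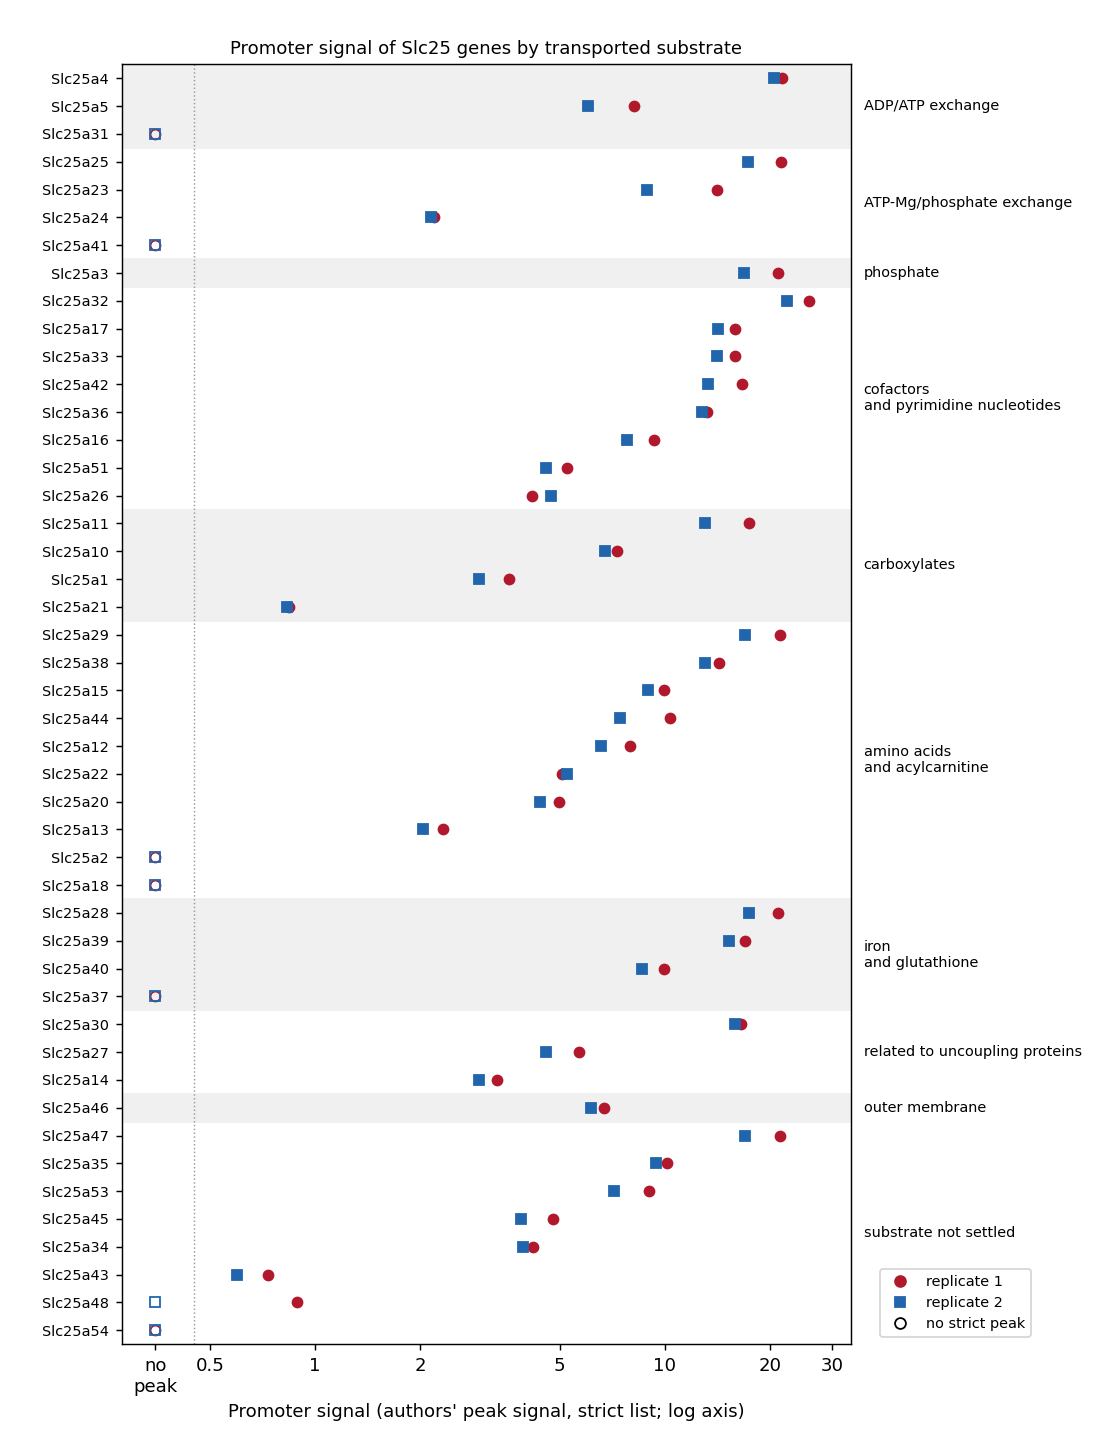
Promoter signal of 46 Slc25 genes (log axis) in replicate 1 (circles) and replicate 2 (squares), grouped by what the carrier is known to transport, with open symbols where no strict peak was listed. Signals of open members run from 0.598 for Slc25a43 to 25.7 for Slc25a32, and every carrier of cofactors and pyrimidine nucleotides drawn has peaks in both libraries. Such peaks are present at 85.1% of the family and 63.7% of all genes.

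Base composition moved with this count. The median GC content of the 500 bp around the promoter was 63.4% for the members and 58.8% for all genes. This window was centred on the start nearest the strongest promoter site of both libraries, and without such a site on the annotated gene start. Its placement thus depends on openness, so the split below used the annotated gene start for every gene. Where the GC content around the annotated gene start was 60% or more, 25 of 27 members were open, against 92.1% of all such genes. Below that value 15 of 20 members were open (75%, Wilson interval 53.1 to 88.8%), against 44.4% of all such genes. The part of base composition in the difference from all genes was not tested beyond this split.

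**Figure D2:**
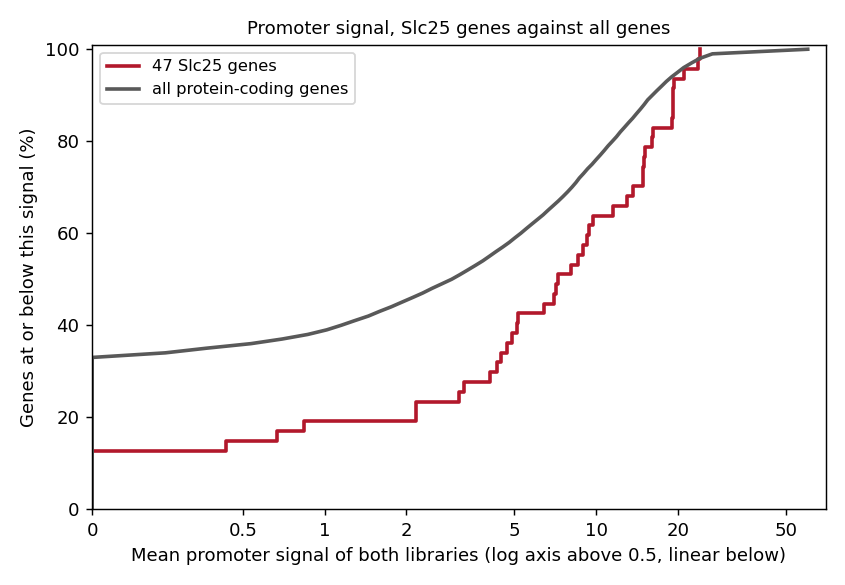
Share of genes (vertical axis, %) at or below a mean promoter signal of both libraries (horizontal axis, log above 0.5) for the 47 Slc25 genes and for all 21938 protein-coding genes. The line of the Slc25 genes lies below that of all genes over most of the range, with medians of 7.26 and 2.94.

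Among the carriers that exchange ADP for ATP, Slc25a4 stood highest. Its gene encodes the adenine nucleotide translocator of heart and skeletal muscle, and it had a promoter signal of 21.6 in replicate 1 and 20.5 in replicate 2, which placed its mean at the 96.0 percentile of all genes. Slc25a5, the form found in most tissues and in dividing cells, had 8.15 and 6.04. In each library Slc25a4 had the higher signal of the pair. Its main site spans chr8:46210981-46211160, in an annotated untranslated region of its longer transcript, and that of Slc25a5 spans chrX:36795461-36795680, across its start. Slc25a31, the translocator of male germ cells, had no strict peak in either library, and in the permissive lists it had a peak of 0.372 in replicate 2 alone.

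A stretch like a TATA box, ATATAAG, was looked for after the promoter sequences were seen. It was found in the 250 bases before the start of 2 of 47 members, Slc25a4 and Slc25a5, against 2.16% of all genes, and its 7 bases all lay in capitals at both. It begins 28 bases before the start used for Slc25a4 and 29 bases before that of Slc25a5. The TATA box TATAAA was found in 0 of 47 members, against 10.7% of all genes and 5.52% of all open genes. The window of Slc25a31 holds CGCANGCGC, the NRF1 consensus, on the minus strand and none of its 9 bases in capitals. Besides the main site Slc25a5 had a site in its intron (5.22 and 4.15) with 3 shared footprints, and Slc25a4 had one in an intron (3.87 and 4.21) with 1.

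Slc25a3 encodes the phosphate carrier, which supplies the phosphate for ATP synthesis. Its promoter signal was 21.1 in replicate 1 and 16.8 in replicate 2, and its main site held 4 shared footprints. In its window the SP/KLF box GGGCGG lies wholly in capitals, while the ETS consensus CCGGAAG has none of its 7 bases in capitals. Slc25a3 had no distal site within 50 kb.

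The ATP-Mg/phosphate carriers, which adjust the adenine nucleotide pool of the matrix and are gated by calcium, differed widely. Slc25a25 had 21.4 in replicate 1 and 17.2 in replicate 2, Slc25a23 had 14.1 and 8.91, and Slc25a24 had 2.19 and 2.14. The Slc25a23 value is from a site 477.5 bp upstream of the start, with its midpoint in an intron of Crb3. The site at the Slc25a23 start itself had 3.07 and 3.34. Slc25a41, the relative that lacks the calcium-binding part, had no peak in the strict or the permissive lists and no base with a listed false discovery rate of the cut rate within 1000 bp of its starts. Slc25a25 has 12 annotated starts and had 6 shared promoter sites with 16 shared footprints, the most of any member. Its main site had 4 of these footprints, and a second site 705.5 bp upstream of the start had 19.4 and 14.6. Both lie in an annotated untranslated region of Naif1, which overlaps Slc25a25. Inside the gene, sites 95.5 bp and 41.5 bp upstream of other starts had 2.59 and 1.95, and 4.40 and 3.56.

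All 9 carriers of cofactors and pyrimidine nucleotides were open, against 85.1% of the whole family and 63.7% of all genes. They had a median mean signal of 14.9. Differences between substrate groups were not tested. Slc25a32, the folate carrier, had 25.7 in replicate 1 and 22.4 in replicate 2, the highest mean of the family, at a site also within 1000 bp of a start of Dcaf13. That site spans chr15:39112641-39112880. Slc25a17, a peroxisomal carrier of cofactors, had 15.9 and 14.2, Slc25a42, the coenzyme A carrier, 16.6 and 13.3, and Slc25a16, which is tied to coenzyme A, 9.33 and 7.78. The pyrimidine nucleotide carriers Slc25a33 (15.8 and 14.1) and Slc25a36 (13.2 and 12.8) were close to each other. The NAD carrier Slc25a51 had 5.24 and 4.58, and the S-adenosylmethionine carrier Slc25a26 had 4.18 and 4.73.

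These promoters and that of Slc25a44 carry motif letters under footprints, and 4 of them are shown for that reason. In Slc25a36 and Slc25a26 the CREB half-site TGACGT occurs on both strands in overlapping positions and lies wholly in capitals, while the E-box CACGTG nearby has no base in capitals. In Slc25a32 both GGGCGG boxes lie wholly in capitals. In Slc25a44 the YY1 consensus AAGATGGC lies wholly in capitals, and it was the single match of that motif among the members. A match is a description of the letters and does not name the bound protein.
Slc25a36, chr9:97111158-97111277, minus strand: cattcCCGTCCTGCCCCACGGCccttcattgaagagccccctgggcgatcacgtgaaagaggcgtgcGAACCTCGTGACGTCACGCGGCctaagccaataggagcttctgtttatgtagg
Slc25a26, chr6:94500211-94500330, plus strand: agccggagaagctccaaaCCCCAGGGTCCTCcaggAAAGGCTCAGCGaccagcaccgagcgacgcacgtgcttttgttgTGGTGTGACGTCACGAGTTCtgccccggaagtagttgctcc
Slc25a32, chr15:39112717-39112836, minus strand: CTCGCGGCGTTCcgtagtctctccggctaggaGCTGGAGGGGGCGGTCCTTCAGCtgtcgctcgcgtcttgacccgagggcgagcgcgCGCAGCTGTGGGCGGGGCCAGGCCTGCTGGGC
Slc25a44, chr3:88425140-88425259, minus strand: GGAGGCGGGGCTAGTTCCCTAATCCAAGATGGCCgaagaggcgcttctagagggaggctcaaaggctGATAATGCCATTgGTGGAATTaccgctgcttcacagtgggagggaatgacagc

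All 4 carriers of carboxylates were open, against 63.7% of all genes, at very different signals. Slc25a11, the oxoglutarate carrier of the malate-aspartate shuttle, had 17.4 in replicate 1 and 13 in replicate 2, at a site also near a start of Rnf167. Slc25a10, the dicarboxylate carrier, had 7.28 and 6.75, and Slc25a1, the citrate carrier, 3.60 and 2.95. Slc25a21, the oxodicarboxylate carrier, was among the weakest open members with 0.841 and 0.831. Its site lay 536 bp downstream of the start nearest to it.

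Of 10 carriers of amino acids and acylcarnitine, 8 were open, against 63.7% of all genes. The aspartate/glutamate carriers of the malate-aspartate shuttle were both open, with 7.93 in replicate 1 and 6.58 in replicate 2 for Slc25a12, the form of muscle and brain, and 2.32 and 2.04 for Slc25a13, the form known from liver. Slc25a20, which brings long-chain acylcarnitines into the matrix for fatty acid oxidation, had 4.99 and 4.40, near the 57.7 percentile of all genes. Slc25a29, a carrier of basic amino acids, had 21.3 and 17.0 at a site shared with the divergent gene Slc25a47, so the signal cannot be given to either gene. Slc25a47 counted as open only through a start of a transcript not annotated as protein-coding. Slc25a38, the glycine carrier of haem synthesis, had 14.3 and 13, and Slc25a44, a carrier of branched-chain amino acids, 10.4 and 7.46.

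Several paralog sets held both open and closed members. The ornithine carrier Slc25a15 had 9.95 in replicate 1 and 8.93 in replicate 2, while its relative Slc25a2 had no strict peak and 0.374 in the permissive list of replicate 1. The glutamate carrier Slc25a22 had 5.07 and 5.25, while Slc25a18 had no strict peak and permissive peaks of 0.615 and 0.552. The mitoferrins, which import iron, also stood apart. Slc25a28 (mitoferrin 2, of most tissues) had 21.1 and 17.3 at chr19:43674841-43675200 with 10 shared footprints over its 3 promoter sites, and Slc25a37 (mitoferrin 1, of red cell precursors) had no strict or permissive promoter peak and no base with a listed false discovery rate. The glutathione carriers Slc25a39 and Slc25a40 were both open, with 16.9 and 15.3, and 9.93 and 8.57. The site of Slc25a40 is also within 1000 bp of a start of Dbf4. At Slc25a39 the main site lay 624.5 bp upstream of the start nearest to it, and a second site at another start had 13.6 and 11.4.

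Of the carriers related to the uncoupling proteins, Slc25a30 had 16.5 in replicate 1 and 15.9 in replicate 2. Slc25a27 had 5.68 and 4.57 at a site shared with Cyp39a1, and Slc25a14 had 3.32 and 2.95. Slc25a46, which sits in the outer membrane and acts in mitochondrial shape, had 6.72 and 6.16 at a site shared with B930094E09Rik. Among 8 carriers whose substrate is not settled 6 were open, against 63.7% of all genes. Slc25a35 had 10.1 and 9.41 and Slc25a53 9.04 and 7.13, against 0.735 and 0.598 for Slc25a43, the lowest open member and the only open one without a shared footprint. Slc25a34 (4.20 and 3.94) and Slc25a45 (4.78 and 3.88) were open with few CpG dinucleotides, at observed over expected ratios of 0.0682 and 0.311, against a median of 0.767 over open members.

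The 7 members that were not open fell into grades. Slc25a48 had a strict peak of 0.890 in replicate 1 alone and 0.658 in the permissive list of replicate 2, and 357 and 283 bases near its start had a false discovery rate of the cut rate listed below 0.05. Slc25a18 had 126 and 116 such bases, Slc25a2 had 175 and 0, and Slc25a31 had 0 and 88. Slc25a37, Slc25a41 and Slc25a54 had 0 in both libraries. Open members had at least 354 such bases in replicate 1 and 356 in replicate 2, so Slc25a48 stood at the edge of the open range in replicate 1. In bulk tissue a site open in few cells and a site weakly open in many cannot be told apart.

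The main open site usually lay at the start itself. Its midpoint was within 100 bp of a start at 32 of 40 members and 9641 of 13968 genes with a shared site, and the median width was 220 bp for members and 200 bp for all. At 7 of 40 members (17.5%) the site was also within 1000 bp of a start of another protein-coding gene, against 19.3% of all. A second shared promoter site was present at 20 of 47 members, against 34.2% of all genes. At 39 of 47 members a shared promoter site held a footprint of both libraries, against 62.3% of all genes. Both counts need an open promoter. Over open genes alone the first was 20 of 40 members, against 7496 of 13985 genes. The second was 39 of 40, against 13666 of 13985. The main site held a median of 3 shared footprints in open members and in all open genes. Over 40 open members, mean signal and the number of shared footprints had a Spearman correlation of 0.40, against 0.46 over all 13985 open genes, given as a description since both rest on the cuts of the same libraries.

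**Figure D3:**
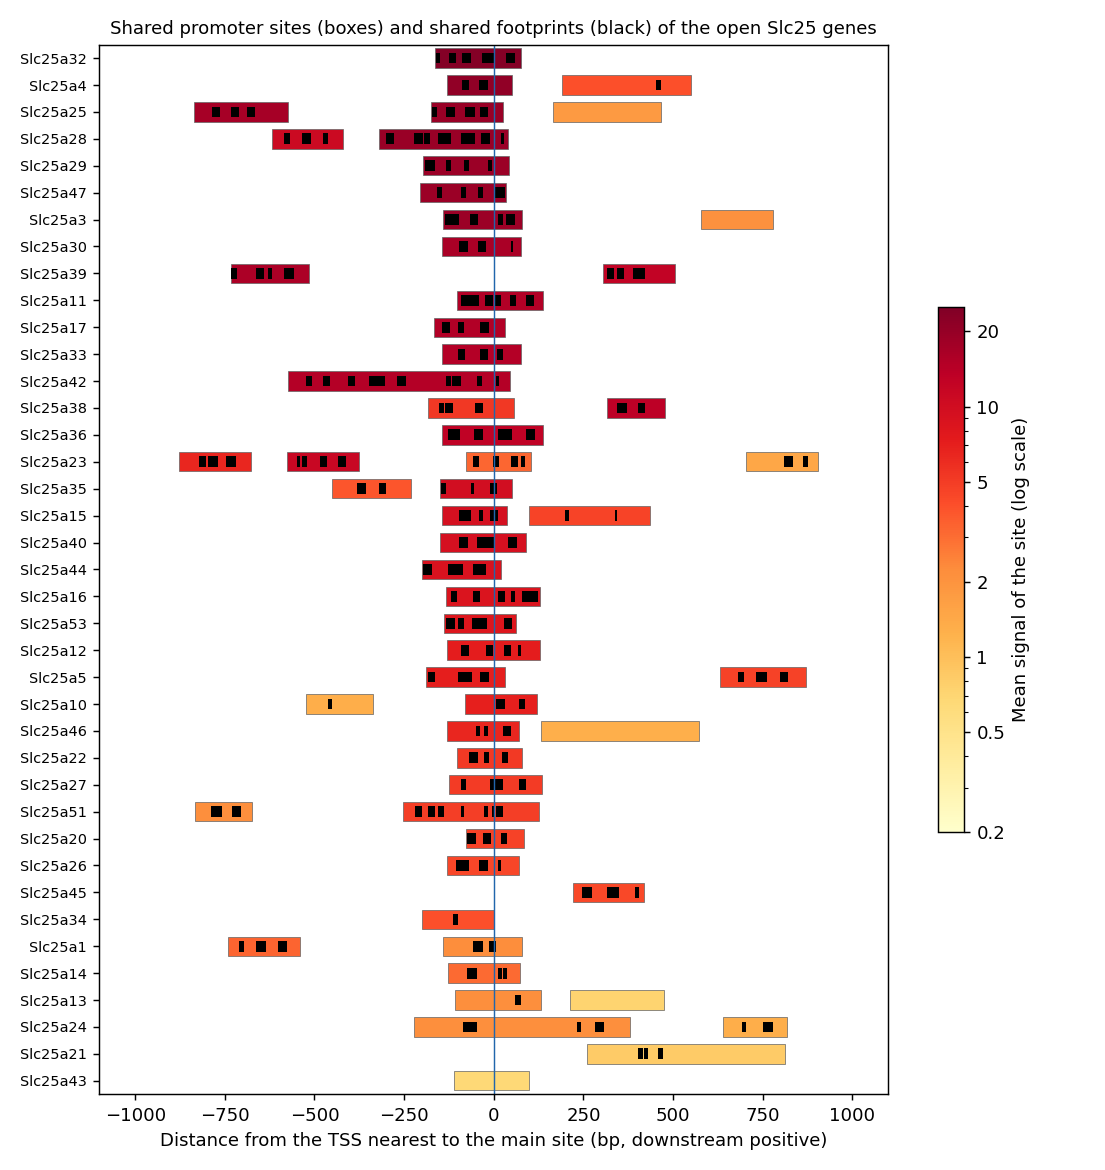
Shared promoter sites (boxes, coloured by mean signal on a log scale) and shared footprints (black) of 39 open Slc25 genes, by distance in bp from the start nearest to the main site, in order of mean signal. Most main sites straddle the start, while those of Slc25a39, Slc25a23, Slc25a38, Slc25a1, Slc25a45 and Slc25a21 lie more than 300 bp away, and sites at starts beyond the plotted range are not drawn.

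Motifs were sought as exact letters on both strands in the 250 bases before the start, overlaps between motifs allowed. The start was the one nearest the main site, or the annotated gene start where there was no shared site. Shares over all genes thus mix these placements. SP/KLF GGGCGG was found at 29 of 47 members (61.7%, against 43.7% of all genes), CCAAT at 22 (46.8%, against 35.9%), ETS CCGGAAG at 9 (19.1%, against 9.14%) and the E-box CACGTG at 8 (17.0%, against 6.70%). Among open promoters alone the shares were 67.5% against 61.5% for GGGCGG, 50% against 35% for CCAAT, 20% against 13.1% for ETS and 17.5% against 8.49% for CACGTG. The E-box CAGCTG, which the myogenic factors prefer, was found at 5 members (10.6%, against 12.6%), and the CREB half-site TGACGT at 5 (10.6%, against 7.78%). NRF1 was found at 2 members (4.26%, against 7.84%), the ERR half-site AAGGTCA and YY1 at 1 each (2.13%, against 3.35% and 1.58%), and the MEF2 core TATTTTTA at 0 (against 1.85%). Among open promoters alone the NRF1 share was 2.5%, 1 of 40 members, against 11.3%. There CAGCTG stood at 10% against 12.6%, TGACGT at 10% against 10.1%, AAGGTCA at 2.5% against 2.37%, and YY1 at 2.5% against 2.03%. The MEF2 core stood at 0% against 1.11%. None of these differences was tested, and the shares were not split by base composition.

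Inside the promoter sites of members, footprints of both libraries overlapped 58 of 92 GGGCGG matches (63%, against 51.8% over all genes), 9 of 13 TGACGT matches (69.2%, against 62.8%) and 5 of 13 CCGGAAG matches (38.5%, against 47.1%). For CCAAT the count was 17 of 46 (37%, against 37.8%), and for CACGTG 2 of 8 (25%, against 37.9%). For CAGCTG it was 5 of 13 (38.5%, against 23%), which include all 3 matches of the Slc25a32 site. Except for GGGCGG and CCAAT these shares rest on 13 matches or fewer.

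The libraries gave similar values at the open promoters of the family. The log2 ratio of replicate 2 to replicate 1, centred on the median of -0.14 over all 68349 shared sites, stood at a median of -0.06 over 40 members, with an SD of 0.17. At the promoters of all 13985 open genes the centred median was -0.02 and the SD 0.22. Over all shared sites the SD was 0.30, and 36 of 40 members lay within 1 such SD. Those outside it included Slc25a23 (-0.52), Slc25a44 (-0.33) and Slc25a26 (0.32). Uncentred, the signal of replicate 2 was the higher one at Slc25a22 and Slc25a26 alone. With 1 library on each side no test was possible.

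**Figure D4:**
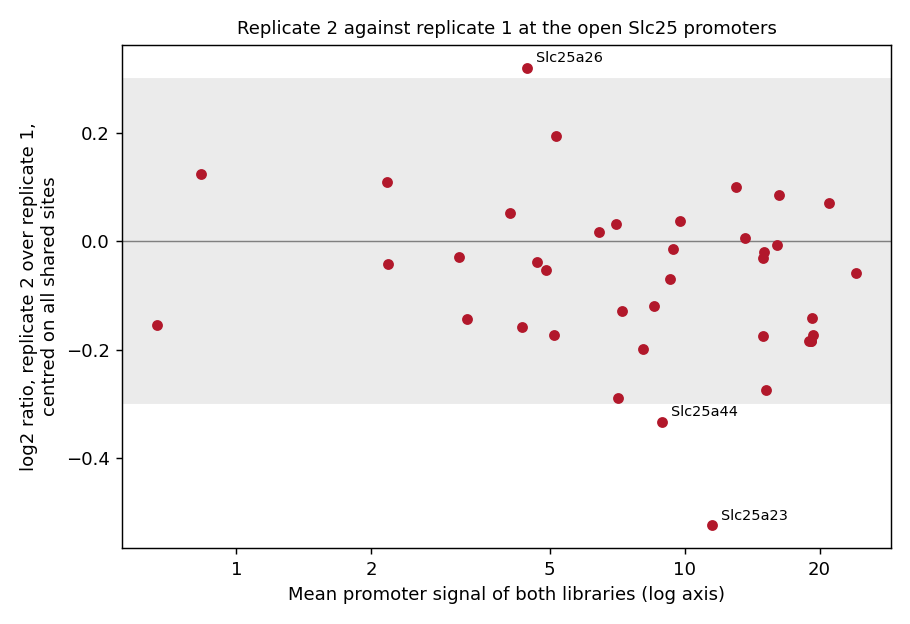
Centred log2 ratio of replicate 2 over replicate 1 (vertical axis) by mean promoter signal (log axis) for 39 open Slc25 genes, with the grey band marking 1 SD of all shared sites (0.30). The 3 named genes lie outside the band, from -0.52 for Slc25a23 to 0.32 for Slc25a26.

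Away from promoters the family had 56 shared distal sites, each within 50 kb of a start of the nearest protein-coding gene, and distances are given to the nearest start of that gene. At least 1 was present at 25 of 47 members, against 49.1% of all genes, and the mean was 1.19 per member against 1.48 per gene. Their median mean signal was 1.71, against 1.68 for all 32511 assigned distal sites. Each site was labelled by its midpoint, against protein-coding genes only. Of the 56, 39 were intergenic in this sense, 13 in introns, 3 in untranslated regions and 1 in a coding exon. Some sites labelled intergenic overlap an annotated exon along their length, such as that of Slc25a1. Nearness alone ties a distal site to a gene.

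Slc25a33 had the most distal sites, 7, and all lay upstream. The strongest, 32.6 kb from its start, had 10.4 in replicate 1 and 9.94 in replicate 2, and one 46.5 kb away had 8.62 and 6.38. Slc25a25 had 6, of which 3 lay close together 35.8 to 37.4 kb upstream with 8.04 and 5.96, 4.19 and 3.74, and 4.53 and 4.03. Slc25a4 had 4, the strongest 5.79 kb upstream (4.53 and 3.40), with others 2.54 kb downstream in its coding exon (3.45 and 3.42) and 30.8 kb upstream (3.38 and 3.44). Slc25a5, Slc25a21, Slc25a30, Slc25a36 and Slc25a51 had 3 each. Their strongest sites had 6.97 and 5.44 for Slc25a5 (10.7 kb downstream), 5.29 and 3.74 for Slc25a30 and 4.33 and 3.97 for Slc25a36. Slc25a51 reached 1.57 and 1.25, and Slc25a21 1.17 and 1.09.

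The strongest distal site of the whole family belonged to a gene with only 1. It lay 5.35 kb downstream of the nearest of the 6 annotated starts of Slc25a1, an internal one, and beyond the 3′ end of the gene, at chr16:17921881-17922100, with 13.5 in replicate 1 and 10.9 in replicate 2, and these exceeded the promoter signal of Slc25a1 itself (3.60 and 2.95). Slc25a39 had its single distal site 3.96 kb upstream with 9.23 and 7.77. Slc25a37, closed at its promoter, had 2 distal sites beyond its 3′ end, with 2.07 and 1.87, and 2.37 and 2.05. Slc25a31, also closed there, had 1 inside an intron of Intu (1.49 and 1.09).

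Letters of the CTCF consensus, the site of an insulator protein, were noticed in distal sites and then counted, so this motif was chosen after the sequences were seen. They were found in 16 of 56 distal sites of members (28.6%), against 18.4% of all 32511 assigned distal sites, and in 2 of 47 promoter windows, those of Slc25a12 and Slc25a38, against 3.05% of all genes. All 16 matches overlapped a footprint of both libraries, but no such share over all assigned distal sites is given, so this does not set the members apart. The median mean signal was 2.78 at the 16 sites and 1.41 at the 40 without the letters, and over all assigned sites it was 2.07 with and 1.60 without. The E-box CAGCTG was found in 11 of 56 (19.6%), against 28.7% of all. The strongest distal sites of Slc25a33, Slc25a39 and Slc25a25 held the CTCF letters, while those of Slc25a1, Slc25a5 and Slc25a30 and the Slc25a33 site 46.5 kb away did not.

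Of the distal sites with this consensus 5 are shown in the direction of the gene, the strongest of 3 genes and both of Slc25a37, whose promoter was closed. In each the letters lie wholly in capitals. Of the sites not shown, those of Slc25a10 and Slc25a24 have 5 and 3 of the 12 bases in capitals, and the others all 12. The first sequence shown is the strongest site of Slc25a33, the next that of Slc25a25, then that of Slc25a39 and the 2 sites of Slc25a37.
Slc25a33 distal site, chr4:149806841-149806980, minus strand: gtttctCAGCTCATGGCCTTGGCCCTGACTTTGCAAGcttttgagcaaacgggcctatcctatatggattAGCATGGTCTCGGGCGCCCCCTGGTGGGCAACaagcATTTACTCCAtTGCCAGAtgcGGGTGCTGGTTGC
Slc25a25 distal site, chr2:32487201-32487380, minus strand: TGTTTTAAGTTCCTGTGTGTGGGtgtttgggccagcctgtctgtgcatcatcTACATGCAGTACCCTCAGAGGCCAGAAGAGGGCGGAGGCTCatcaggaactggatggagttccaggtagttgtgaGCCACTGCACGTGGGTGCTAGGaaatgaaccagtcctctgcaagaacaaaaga
Slc25a39 distal site, chr11:102411821-102412000, minus strand: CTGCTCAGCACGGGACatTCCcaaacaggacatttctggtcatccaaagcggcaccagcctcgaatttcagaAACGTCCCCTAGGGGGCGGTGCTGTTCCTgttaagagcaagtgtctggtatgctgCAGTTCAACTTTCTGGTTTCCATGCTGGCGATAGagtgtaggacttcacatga
Slc25a37 distal site 1, chr14:69238301-69238480, minus strand: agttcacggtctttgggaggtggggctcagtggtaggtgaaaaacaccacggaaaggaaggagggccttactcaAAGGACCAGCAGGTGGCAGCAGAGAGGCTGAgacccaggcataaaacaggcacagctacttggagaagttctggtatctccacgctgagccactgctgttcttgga
Slc25a37 distal site 2, chr14:69241641-69241820, minus strand: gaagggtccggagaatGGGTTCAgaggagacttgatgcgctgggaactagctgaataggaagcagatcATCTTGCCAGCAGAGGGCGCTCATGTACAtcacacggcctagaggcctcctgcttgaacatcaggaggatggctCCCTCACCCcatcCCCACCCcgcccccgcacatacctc

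**Figure D5:**
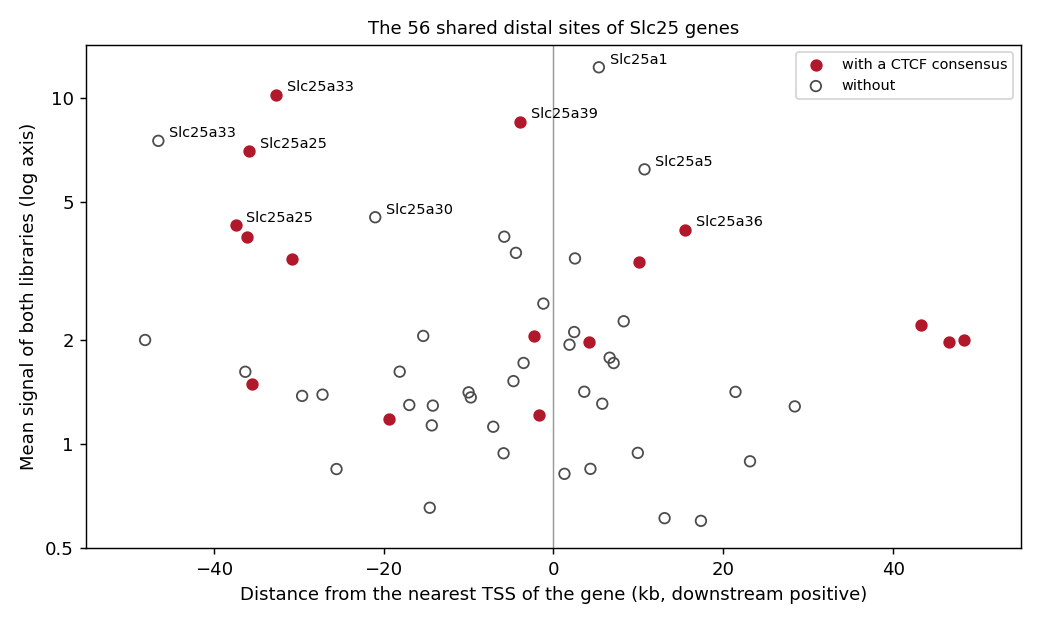
Mean signal of both libraries (log axis) at the 56 shared distal sites of Slc25 genes by distance in kb from the nearest start of the gene, with filled points for the 16 sites that hold the CTCF consensus. The strongest site is that of Slc25a1, and sites with the consensus have a median of 2.78 against 1.41 for those without.

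The proteins that work beside the carriers were read from a list of 16 genes, of which 15 were open, against the 63.7% of all genes. Of the uncoupling proteins, which share the carrier fold, Ucp1 of brown fat had no strict peak and 0.297 in the permissive list of replicate 1, Ucp2 had 3.72 in replicate 1 and 4.09 in replicate 2, and Ucp3, the muscle form, had 1.96 and 1.99. The outer membrane relatives Mtch1 and Mtch2 had 24.4 and 21.2, and 24.5 and 19.7. The pyruvate carrier genes Mpc1 and Mpc2 had 16.0 and 15.5, and 26.8 and 22.6. The outer membrane channels Vdac1, Vdac2 and Vdac3 had 7.58 and 7.86, 15.5 and 14.6, and 19.9 and 13.7. In the import path that inserts carriers into the inner membrane, Timm22 had 10.1 and 8.49, Timm29 5.79 and 4.69, Agk 2.85 and 2.57, Timm9 4.43 and 4.65, Timm10 4.88 and 5.32, and Timm10b 13.7 and 11.9. All of these but Ucp1 had strict peaks in both libraries, and Ucp3 was the lowest of those.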

How the data were processed

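DNase-seq peaks, footprints and per-base false discovery rates of both libraries were used as deposited on mm10, and per the labels replicates were not pooled. The aligner and the callers of peaks and footprints were used with names and versions not given in the sources used here. Per the file headers and values, column 7 of the deposited peak lists is a signal set by the authors, whose scaling no source states. The deposited per-base files and footprint lists hold q-values (false discovery rates), the per-base ones listed only below 0.05.

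Strict peaks of the replicates that overlapped by at least 1 bp were merged into shared sites. Promoters were sites with a midpoint within 1000 bp of the start of any transcript of a protein-coding gene in GENCODE vM21, and distal sites were assigned to the nearest start within 50 kb. GC content was taken in 250 bp to each side of a start, with classes split at 60%. Shares carry Wilson 95% intervals for counting error over genes only. The mm10 build is of C57BL/6J, and an effect of differing CAST alleles was not tested. Named genes were the 10 highest and 5 lowest open members, all members closed in a library (values of some named items are not reported here), the 5 with most distal sites, and fixed carriers and paralog sets. The members, lists and motifs were chosen with earlier results of these data known. Assignment and merging were tested on simulated peaks with planted answers. Python 3.11.15, numpy 2.4.6, pandas 2.3.3, scipy 1.17.1, pysam 0.24.0 and matplotlib 3.10.9 were used. The alternatives tried were the permissive lists, only the stronger 50% of peaks, each replicate alone, promoter windows of 500 and 2500 bp, starts of transcripts annotated as protein-coding only, sites that overlap the start, 50% reciprocal overlap of peaks or footprints, and assignment within 20 or 100 kb.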

Additional observations from a re-analysis of the deposited data

How the results depend on the processing

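Over the alternatives listed, 35 to 42 of 47 members had an open promoter, with the lower value where the peak had to overlap the start, which ended the calls of Slc25a21, Slc25a28, Slc25a34, Slc25a44 and Slc25a45 (51.1% of all genes remained). The permissive list added Slc25a18 and Slc25a48, and the stronger 50% of peaks lost Slc25a21 and Slc25a43. Starts of transcripts annotated as protein-coding only lost Slc25a47, and the window of 500 bp lost Slc25a21. The number of shared distal sites was 56 and depended on the setting: it was 103 with the permissive list, 30 with the stronger 50% of peaks and 37 with assignment within 20 kb. Members with a distal site numbered 16 with the stronger 50% of peaks, against 25. With each replicate alone the open promoters numbered 40 to 41, the median promoter signal was 6.75 to 8.15, the distal sites 62 to 82, the members with one 28 in both, and those with a footprint in the promoter site 40 in both. The centred log2 ratio had a median of -0.06, and of -0.20 without centring. No paired analysis was possible because the series has 1 group. Read depth is unknown, so weak sites such as those of Slc25a43, Slc25a48 and Slc25a18 cannot be placed against a detection limit.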
